A study of Homo sapiens with 4 samples.

Results

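SOX and SALL genes encode transcription factors of early development, and 10 of them are described here in A549 cells, a human lung adenocarcinoma cell line, with and without embelin: SOX2, SOX4, SOX6, SOX7, SOX9, SOX12, SOX13, SALL1, SALL2 and SALL4. Their 15 probes were found by gene name or by RefSeq transcript among the 50238 probes of a human oligonucleotide array, which carried 30970 genes or transcripts in all. The study set 2 embelin samples (15 µM for 4h) against 2 untreated controls, asking which pathways take part in the apoptosis that embelin brings about. Embelin is a benzoquinone from Embelia plants that is known to inhibit XIAP, a blocker of caspases. Cells of both groups were in minimum essential medium with serum lowered to 2% before treatment, and each sample was run on 1 single-colour (Cy3) array of the same slide. The labels do not say that the replicates came from separate cultures, so the spread and every p-value cover these samples only and may be technical. The 10 genes were picked from this same comparison, with their changes known. Their differences are therefore given as a description, without a test.

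SOX factors bind DNA through an HMG box that bends the double helix, and they act with partner factors that stand beside them on the same sites. SOX2 keeps stem and progenitor cells undifferentiated together with POU5F1 (OCT4), and in the airway it marks the proximal epithelium, while SOX9 marks the distal tip of the developing lung. SALL factors are zinc finger proteins that mostly repress genes through the NuRD histone deacetylase complex.

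All values are log2 of the scanner's processed signal after the 75th percentiles of the arrays were made equal. A probe was kept when both arrays of 1 group or the other showed at least 1 of its spots well above background by the scanner software's own call, outlier spots included. The arrays differed in how many probes were detected: 33542 and 33372 probes were well above background on control 1 and embelin 2, against 25288 on control 2 and 25733 on embelin 1. With outlier spots left out, the lowest signals so called were 3.83 and 3.89 on the former arrays and 5.85 and 5.97 on the latter. The median local background was 23 to 25 intensity units on all 4. Each group thus held 1 array with more and 1 with fewer probes detected, and 9 of the 15 probes, from 7 of the 10 genes, were kept. SOX6, SOX7 and SALL1 had no kept probe. Across genes, replicates correlated at 0.973 in controls and 0.972 with embelin, against 0.926 to 0.968 between groups. All 8 markers fixed for A549 (KRT8, KRT18, KRT19, EPCAM, CDH1, NQO1, AKR1B10 and ALDH1A1) were kept, with differences of -0.56 to 0.05. Of 9 markers of blood, endothelium, liver and fibroblasts, 6 had no kept probe, CDH5, DCN, PTPRC, COL3A1 and ALB among them, and CD3E, PECAM1 and COL1A1 did, at 1.25, -0.12 and 1.30 (none called after adjustment). For COL1A1 the limma adjusted p was 0.055, and it was called with a filter on all 4 arrays. Further kept probes of COL1A1 gave 1.84 and 1.78, and its groups did not overlap at any kept probe. In such bulk samples fewer cells of a type and less RNA per cell cannot be told apart.

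SOX2 and SALL2 were much lower with embelin, by 18.7-fold and 8.34-fold, and SOX9 was 2.25-fold higher. SOX4, SOX12, SOX13 and SALL4 were lower by smaller amounts, and SOX6, SOX7 and SALL1 were near background throughout. Of the 7 genes with a kept probe, 2 were at least 2-fold lower, where 5.95% of all 17660 genes tested were, and 1 was at least 2-fold higher, where 6.66% were. In either direction these were 3 of 7, beside 12.6% of genes tested. The embelin arrays both lay below both controls for 5 of the 7 and both above for 1, beside 30.7% and 21.1% of the 17309 genes with a value on all 4 arrays, and 51.8% in either direction. The median difference of the 7 was -0.52, beside -0.06 over all genes tested. These counts use the contrast by which the genes were picked, and nothing is read from them. The 2-fold limit passed between SOX9 at 1.17, just inside it, and SOX12 at -0.77, just outside it.

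**Figure D1:**
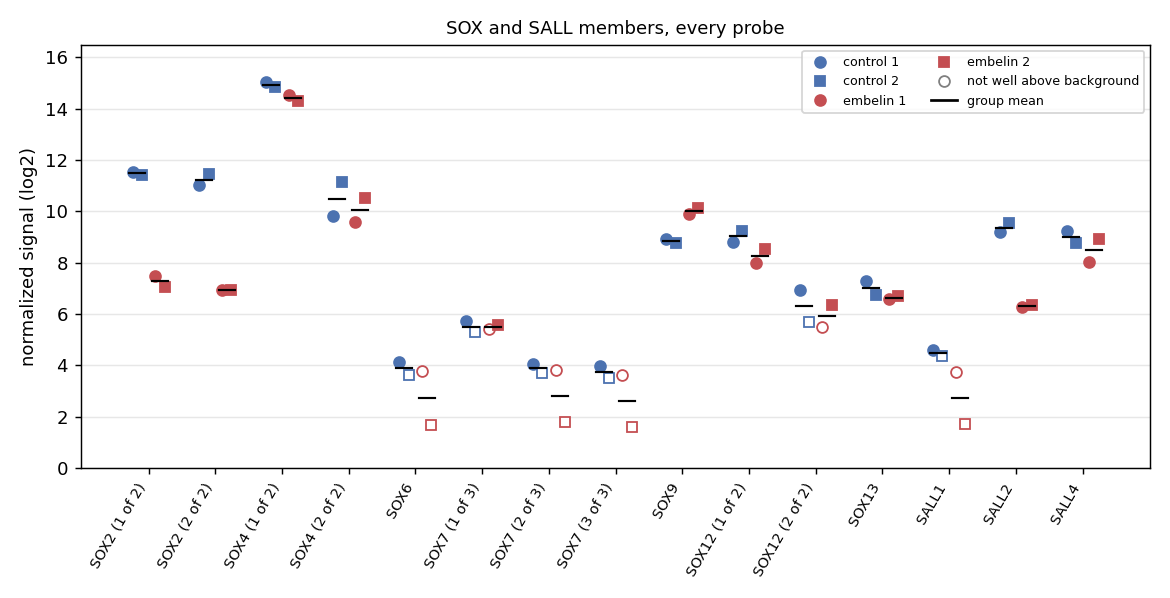
Normalized signal (log2, y axis) of every probe of the 10 SOX and SALL genes on the 2 control arrays (blue) and the 2 embelin arrays (red), with a bar at each group mean and open marks where a spot was not well above background. The probes of SOX2 and SALL2 lie far lower on both embelin arrays, that of SOX9 lies higher, and those of SOX6, SOX7 and SALL1 are mostly open.

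SOX2 was measured by 2 probes that share no run of more than 5 bases. They are shown because both give the largest difference among the 10 genes, and because they sample separate stretches of the transcript. The first is given by its first 30 bases and the second in full, with CG dinucleotides of the second in capitals.
SOX2, first probe: tggccatgcaggttgacaccgttggtaatt
SOX2, second probe: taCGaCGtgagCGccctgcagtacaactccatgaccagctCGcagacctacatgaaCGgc
At the first probe the signal was 11.55 and 11.43 in the controls, and 7.47 and 7.07 with embelin. At the second probe it was 11.01 and 11.44 in the controls, and 6.95 and 6.93 with embelin. Both embelin arrays were far below both controls at either probe, and all spots were well above background. The difference was -4.22 (SE 0.21 from the limma fit, n = 2 a group) at the first probe and -4.29 at the second, which is 19.5-fold. Between the arrays with more probes detected (control 1 and embelin 2) the first probe differed by -4.49, and between the other pair by -3.96. SOX2-OT, the noncoding gene within which SOX2 lies, was not well above background on any array. SOX9-AS1 was looked for by name and not analysed here.

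SALL2 is a zinc finger factor that is known to bind promoters of cell cycle and death genes. Its probe had only 1 CG dinucleotide and a GC content of 36.7%, near the 41.7% median of all probes.
SALL2, first 30 bases of its probe: ctagtaaaatgtcaagaacagacgggagat
The SALL2 signal was 9.18 and 9.54 in the controls, and 6.26 and 6.34 with embelin. The groups were far apart, and the embelin arrays lay close together (SD 0.06). The difference was -3.06 (SE 0.20), at -2.84 between the arrays with more probes detected and -3.28 between the others. With the background re-estimated from the unprocessed spot means (normexp) it was -2.20, the smallest over the alternatives.

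As SOX2 and SALL2 were lower together, the 250 bases before their transcription starts were set side by side (RefSeq, GRCh38.p14). SOX2 lies on chromosome 3 at 181711925 to 181714436 on the plus strand, and SALL2 on chromosome 14 at 21521080 to 21537121 on the minus strand. Capitals mark the motifs searched on both strands: the CCAAT box (CCAAT), the octamer of POU factors (ATGCAAAT), the GC box (GGGCGG), the TATA box (TATAAA) and a core SOX motif (ACAAAG).
SOX2, chr3:181711675-181711924, plus strand: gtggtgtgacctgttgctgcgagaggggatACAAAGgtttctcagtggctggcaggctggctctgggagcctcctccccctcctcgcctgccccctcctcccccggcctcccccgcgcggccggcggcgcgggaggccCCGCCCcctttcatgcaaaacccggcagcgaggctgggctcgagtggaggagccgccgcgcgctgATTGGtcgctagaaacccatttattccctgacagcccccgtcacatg
SALL2, chr14:21537122-21537371, minus strand: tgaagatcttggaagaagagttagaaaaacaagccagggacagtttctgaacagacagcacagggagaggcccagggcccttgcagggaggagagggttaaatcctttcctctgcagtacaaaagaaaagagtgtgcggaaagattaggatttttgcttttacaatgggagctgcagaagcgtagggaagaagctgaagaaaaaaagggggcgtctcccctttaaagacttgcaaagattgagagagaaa
The SOX2 window had a GC content of 68.8% and 20 CG dinucleotides, against medians of 58.0% and 11 over 35116 promoters. It held 1 CCAAT box, 1 GC box and 1 SOX motif, which 32.0%, 42.6% and 13.7% of all promoters held. The SALL2 window had a GC content of 46.0% and 3 CG dinucleotides, and none of these letters. Of the other members, windows were read for SOX4, SOX6, SOX12 and SOX13. The SOX4 window held 4 CCAAT boxes, and the SOX12 window held 42 CG dinucleotides, 3 GC boxes and 1 octamer, which 1.63% of all promoters held. TATAAA stood in 3763 of the 35116 promoters and, of these members, in SOX6 windows only. A match is a run of letters and not a bound site.

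SOX9 directs cartilage formation and epithelial budding. Its signal was 8.91 and 8.78 in the controls, and 9.90 and 10.12 with embelin. Both embelin arrays were above both controls, by 1.17 (SE 0.18), with 1.21 between the arrays with more probes detected and 1.12 between the others.
SOX9, first 30 bases of its probe: aaagcaagtttctttgtattcctcacccta

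SOX4 and SOX12 form the SOXC group with SOX11, and are known for roles in neuronal and other progenitors. SOX4 had the signal 15.04 and 14.85 in the controls, and 14.54 and 14.31 with embelin, at its brightest probe. The groups did not overlap there, with a difference of -0.52 (SE 0.19), but at the other kept probe (9.80 and 11.16 against 9.59 and 10.53) they did. SOX12 gave 8.82 and 9.24 in the controls, and 7.98 and 8.55 with embelin, a difference of -0.77 (SE 0.29) with no overlap. Between the arrays with more probes detected the SOX12 difference was -0.27, and between the others -1.26. Its other probe was well above background on control 1 and embelin 2 only and was not kept.

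SOX13 is a SOXD factor, and its signal was 7.28 and 6.74 in the controls against 6.57 and 6.70 with embelin. The groups nearly met, at control 2 and embelin 2, and differed by -0.38 (SE 0.25). SALL4 is an oncofetal factor of stem cells, and its signal was 9.22 and 8.78 in the controls against 8.03 and 8.94 with embelin. The SALL4 groups overlapped, and the difference of -0.52 (SE 0.38) ranged from -0.98 to -0.06 when single arrays were left out.

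SOX6, another SOXD factor, SOX7, a SOXF factor of vessels and endoderm, and SALL1, a kidney and limb factor, were not well above background on both arrays of either group. SALL1 gave 4.59 and 4.37 in the controls, and 3.74 and 1.70 with embelin, and was above background on control 1 alone. SOX6 gave 4.14 and 3.63 against 3.77 and 1.68, likewise above background on control 1 alone. The 3 probes of SOX7 were above background on control 1, and 1 of them on embelin 2, where its signals were 5.72 and 5.29 against 5.42 and 5.58. The lowest signals of SALL1, SOX6 and the other SOX7 probes were all on embelin 2, and no fold is given for these genes, whose signals are at the limit of detection. A count over all 10 genes with no filter on dim probes would add SOX6 and SALL1 to SOX2 and SALL2 as at least 2-fold lower. No such bound holds for either. With embelin signals raised to the lowest detected signal of each array, the control mean was 0.73-fold of it for SALL1 and 0.48-fold for SOX6. The control signals were thus themselves too low for a bound.

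**Figure D2:**
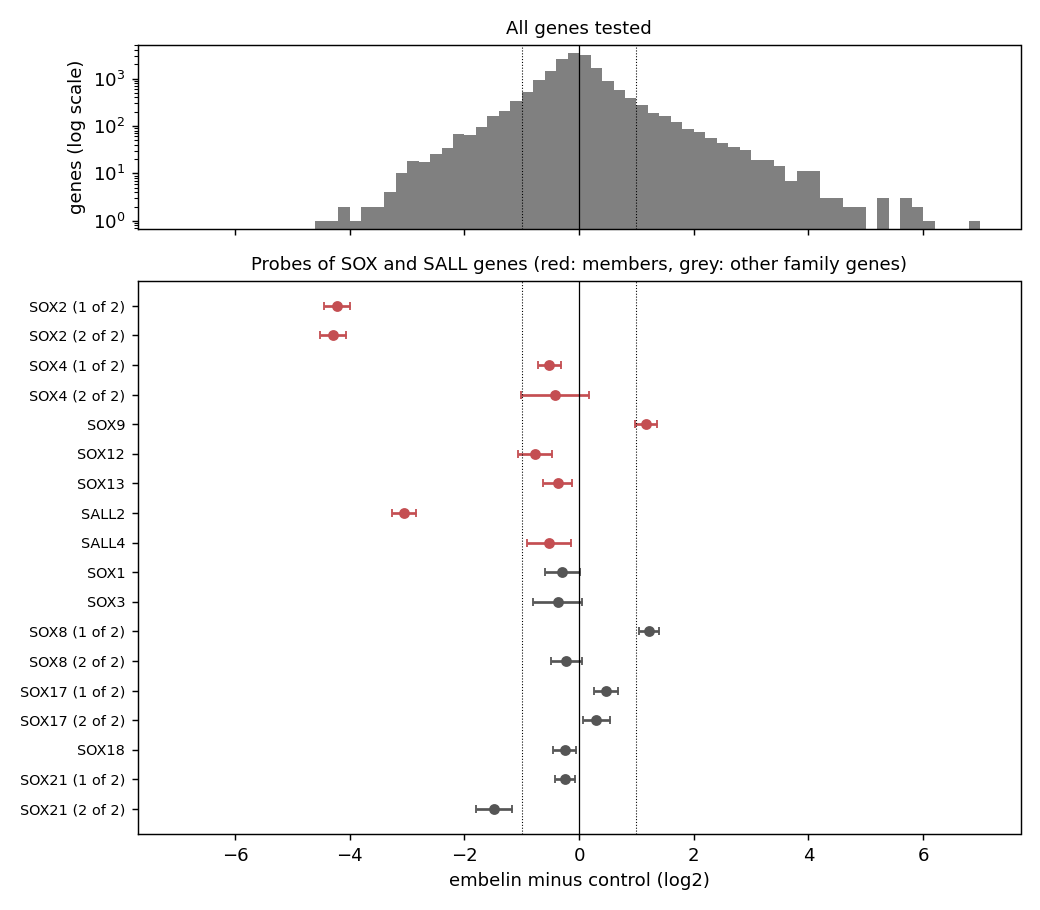
Differences between embelin and controls (log2, x axis) for all 17660 genes tested (upper panel, number of genes on a log axis) and for the kept probes of SOX and SALL genes (lower panel, points with 1 standard error either side from the fit over probes, dotted lines at 2-fold). Both SOX2 probes lie near -4.2, SALL2 at -3.06, and SOX9 and 1 of the SOX8 probes lie above 1.

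Of 13 further SOX and SALL genes, 6 had a kept probe, and limma with Benjamini-Hochberg adjustment over all genes called none, where it called 1.81% of all genes tested (319 genes). They were tested with these results already known in part. SOX8, a SOXE factor like SOX9, came nearest: its brightest probe gave 7.86 and 7.90 in the controls against 9.12 and 9.09 with embelin. That is a difference of 1.22 (SE 0.16, limma adjusted p = 0.055), and it passed under 3 of the 14 alternatives, 1 of which asked for all 4 arrays (limma adjusted p = 0.027). The other SOX8 probe gave 7.20 and 7.81 against 7.27 and 7.29, with overlapping groups and a difference of -0.23, so that the probes of SOX8 disagreed. The probes are shown by their first 30 bases because they differ in base content, at 45.0% GC for the first and 75% for the second.
SOX8, brightest probe: cctgctgccttcactcctttctgaccaagc
SOX8, other probe: ggcctccgcgtcgcccaccgagacgggtcc

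SOX17 and SOX18, which belong to the SOXF group with SOX7, gave differences of 0.47 (limma adjusted p = 0.32) and -0.25 (limma adjusted p = 0.54). SOX1, SOX3 and SOX21 belong to the SOXB group with SOX2. SOX21 gave a mean of 7.02 in the controls (SD 0.02) against 6.82 and 6.71 with embelin, a difference of -0.25 (limma adjusted p = 0.47). A second SOX21 probe, well above background on both controls and on embelin 2, gave 7.05 and 6.59 against 5.03 and 5.64, a difference of -1.48. The SOX21 probes thus agreed in sign and not in size.

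SOX1 and SOX3 each had 1 bright probe that differed little, with overlapping groups. SOX1 gave 11.78 and 12.46 in the controls against 11.99 and 11.66 with embelin (difference -0.29, limma adjusted p = 0.66). SOX3 gave 11.78 and 12.32 against 12.18 and 11.16 (difference -0.38, limma adjusted p = 0.69). These bright probes had a GC content of 76.7% and 71.7%, where the median of all probes was 41.7%.
SOX1, first 30 bases of the bright probe: gctgggctctctggtgaagtcggagcccag
SOX3, first 30 bases of the bright probe: gccgcccgccatcgcatcgcactctcagcg
The other SOX1 probe was well above background on embelin 1 alone, at 8.88 against 1.81, 3.87 and 1.87 on the other arrays, and neither of the other SOX3 probes was above background on any array. The part that base content plays in the bright signals was not tested. SOX5, SOX10, SOX11, SOX14, SOX15, SOX30 and SALL3 had no kept probe.

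Then 7 lists of partners and pathway genes were read, and 3 of their genes were called. Over these lists and the family and noncoding lists, 41 of 77 genes had a kept probe. Of the 41, 2 were called higher and 1 lower, beside 1.25% and 0.555% of all genes tested. The lists were chosen with earlier results of these data known, so nothing is read from these counts. POU5F1, the usual partner of SOX2, rose, as did PMAIP1 (NOXA), a BH3-only death gene. All 3 calls were lost when any single array was left out, as were all 319 calls over the array.

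**Figure D3:**
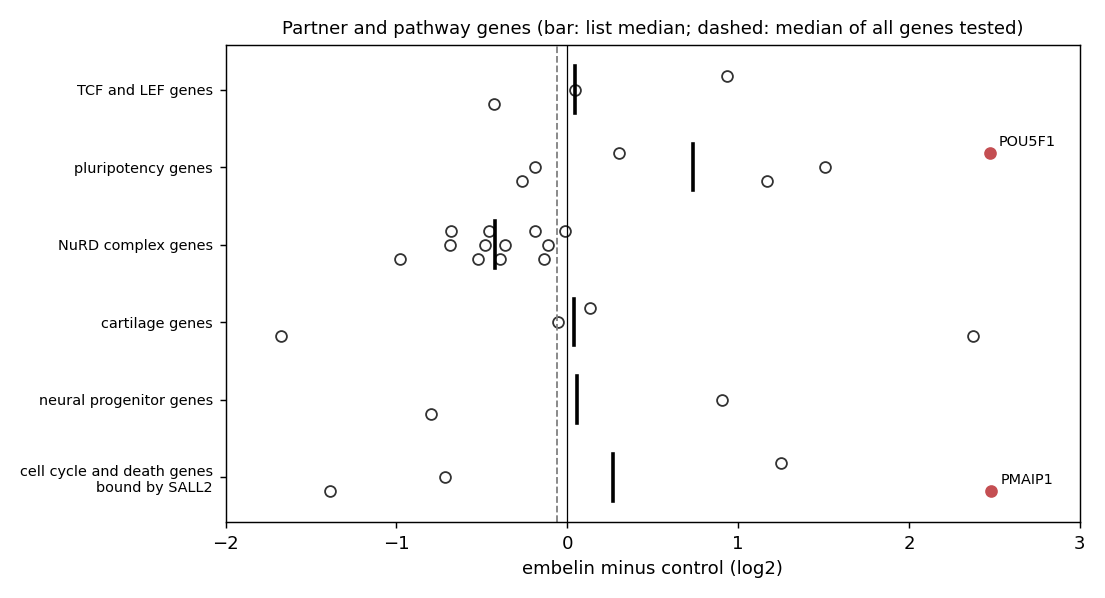
Differences between embelin and controls (log2, x axis) for genes of 6 of the lists (y axis), each circle being 1 gene with a kept probe, filled where limma called it after adjustment, with a bar at the list's median and a dashed line at the median of all genes tested. POU5F1 and PMAIP1 lie near 2.5, and the 12 NuRD genes all lie below 0 at their brightest kept probes.

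Among 14 pluripotency genes 6 had a kept probe, with a median difference of 0.74, and only POU5F1 was called. Its signal at the brightest probe was 10.77 and 10.63 in the controls against 13.02 and 13.32 with embelin. The groups were well apart, and POU5F1 was 5.55-fold higher (difference 2.47, SE 0.19, limma adjusted p = 0.027). The other 3 probes gave 2.34, 2.36 and 2.16, but 2 of them share 51 bases and are close to 1 measurement. POU5F1 has near-identical pseudogene copies, so that the transcript behind these signals is uncertain.
POU5F1, first 30 bases of the brightest probe: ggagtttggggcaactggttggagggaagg
LIN28B, a let-7 inhibitor, had the next largest difference (1.51, limma adjusted p = 0.73), which rested on embelin 1 at 9.76 against 4.22 on embelin 2. KLF4 gave 1.17 (limma adjusted p = 0.14). NANOG, LIN28A, PRDM14 and ZFP42 were not well above background on any array.

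Genes known to be bound by SALL2 were CDKN1A, PMAIP1, CCNE1 and CCND1, and 1 of the 4 was called (median difference 0.27). PMAIP1 gave 9.69 and 8.98 in the controls against 11.88 and 11.75 with embelin, a difference of 2.48 (SE 0.29, limma adjusted p = 0.0498). Both embelin arrays were above both controls, and the call lies at the threshold. CDKN1A, the p21 inhibitor of cyclin-dependent kinases, gave a difference of 1.25 (limma adjusted p = 0.059). CCNE1, the G1/S cyclin, gave -1.39 (limma adjusted p = 0.071). Neither CDKN1A nor CCNE1 passed in the main setting, and each was called in 3 of the 15 settings.

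Of 13 NuRD genes, through which SALL factors repress, 12 had a kept probe and none was called. All 12 differences were below 0, as were 9907 of all 17660 genes tested, and their median was -0.43 beside -0.06. For 9 of the 11 with a value on all arrays both embelin arrays lay below both controls, beside 30.7% of all genes. Under normexp and in the deposited values 11 of the 12 were below 0, under quantile normalization all 12, and as means over probes 10. The largest were MTA2 at -0.98 (limma adjusted p = 0.14) and HDAC2, a deacetylase, at -0.69 (limma adjusted p = 0.22).

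Among 9 kidney and limb genes, which include partners of SALL1, 4 had a kept probe, and 1 of the 4 was called lower. The called gene is counted but not reported here by name. WT1, a kidney and gonad factor, gave 9.77 and 9.89 in the controls against 8.95 and 9.28 with embelin. Its groups did not overlap, and the difference was -0.71 (limma adjusted p = 0.17), which did not pass.

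The remaining lists held no call. Of 10 cartilage genes, SOX9 targets among them, 4 had a kept probe, with a median of 0.04. COL9A1 gave 2.37 (limma adjusted p = 0.36), resting on embelin 1 at 8.61 beside 5.45 on embelin 2. MATN1 gave -1.67 (limma adjusted p = 0.51), resting on control 2 at 8.94 beside 5.54 on control 1. Of 8 neural progenitor genes, MSI1 gave 0.91 (limma adjusted p = 0.12) and NES, an intermediate filament that SOX2 is known to drive, gave -0.80 (limma adjusted p = 0.12). Of the HMG box factors TCF7, TCF7L1, TCF7L2 and LEF1, 3 had a kept probe, with a median of 0.05. TCF7L1 gave 0.94 (limma adjusted p = 0.56), resting on embelin 1 at 8.20 beside 6.19 on embelin 2. TCF7L2 gave -0.43 (limma adjusted p = 0.35) at its brightest probe, and 0.80 at its other kept probe, where the groups overlapped.

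**Figure D4:**
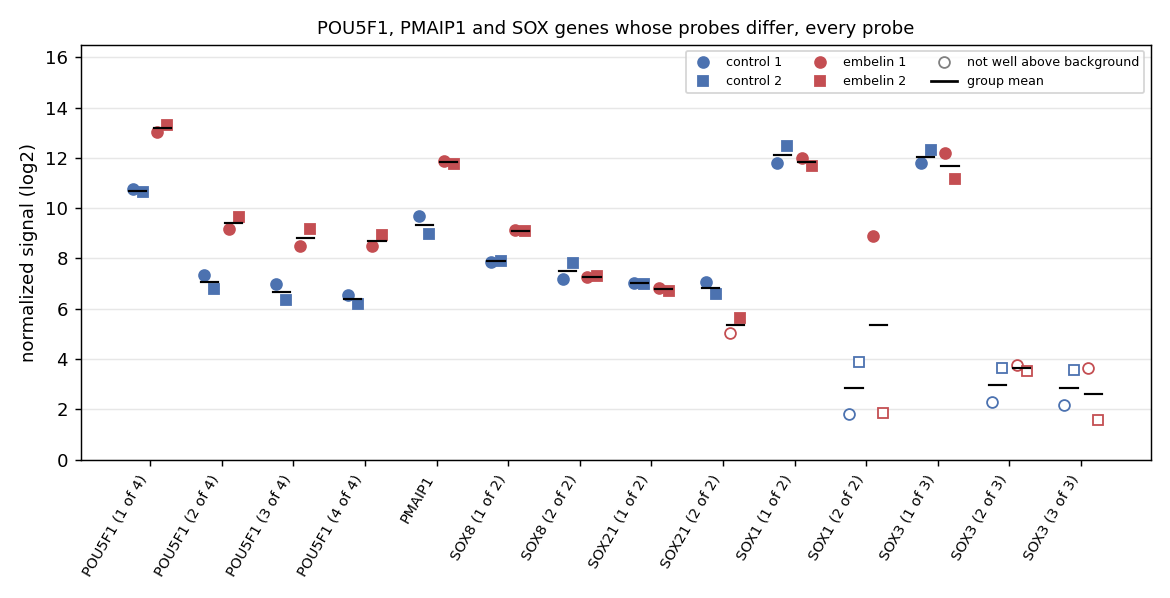
Normalized signal (log2, y axis) on each array for every probe of POU5F1 and PMAIP1 and of SOX8, SOX21, SOX1 and SOX3, whose probes differ in sign, size or detection, with controls in blue, embelin in red, bars at group means and open marks where a spot was not well above background. All 4 POU5F1 probes lie higher with embelin, PMAIP1 lies higher too, and 1 SOX1 probe is bright on embelin 1 alone.

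The genes whose pattern was most like that of SOX2 were found by the distance between log2 signals over the 4 arrays, each gene centred on its own mean, among 11699 genes with a current symbol and all 4 values. RNF43, a ubiquitin ligase that limits Wnt receptors, was nearest at a distance of 0.577. Its signal was 9.62 and 9.38 in the controls against 4.89 and 5.23 with embelin. The embelin 1 value lies under 5.97, the lowest signal called well above background on that array with outlier spots left out. The size of the RNF43 difference, and so its rank, is therefore uncertain. VAV3, a guanine nucleotide exchange factor, followed at 0.594, with 10.79 and 10.99 in the controls against 7.17 and 7.13. HSPA1A, an inducible heat shock protein whose signal cannot be parted from that of the near-identical HSPA1B, came next at 0.601, with 15.80 and 16.06 against 11.62 and 11.96. All 3 had both embelin arrays far below both controls, by -4.44, -3.74 and -4.14.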

How the data were processed

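A549 cells were measured in 2 untreated control and 2 embelin samples (15 µM, 4h), grouped by the labels, on 1 single-colour slide. The authors deposited the processed intensities that Feature Extraction wrote (10.7.3.1 in the headers), background-subtracted and not normalized between arrays. Here each array was scaled to 1 common 75th percentile of intensity, as in the paper's methods, set to at least 1 and logged (log2). Outlier spots were dropped before replicate spots were averaged. RefSeq accessions named 28590 of the 50238 probes, another probe of the same name 2341, and 19307 kept the files' name. The number of arrays limits the precision.

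Probes with any spot well above background on both arrays of a group were kept (26163), and the brightest stood for each of 17660 genes. Groups were compared in R 4.3.3 with limma 3.58.1 (Benjamini-Hochberg over all genes, threshold 0.05), after tests on simulated data. Members and lists were chosen with earlier results of these data known. Named were all members and other SOX and SALL genes, SOX2-OT and SOX9-AS1, genes called or else the 2 largest changes in each list, the 3 genes nearest to SOX2, and the markers; some genes that this covers are counted but not reported here by name. Alternatives were normexp (offset 50), quantile normalization, the deposited table, other filters, the mean over probes, eBayes with trend and robust, the methods' t-test, a replicate number block, slide position, and leaving out each array. No genome of the array's build was used, so probes carry no coordinates.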

Additional observations from a re-analysis of the deposited data

How the results depend on the processing

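The direction of SOX2, SALL2, SOX9, SOX4, SOX12, SOX13 and SALL4 was the same under all 14 alternatives, but some of these could not change it. By design, the other filters, the methods' t-test, trend and robust, the replicate block and slide position left each difference unchanged. The mean over probes did so too for genes with 1 kept probe. Only the remaining alternatives could move these differences. SOX2 ranged from -4.43 to -3.71, SALL2 from -3.24 to -2.20 and SOX9 from 1.03 to 1.28, whereas SOX7, near background, ranged from -0.74 to 0.21. The median of the 10 genes at their brightest probes was -0.64, and -0.69 to -0.56 with single arrays left out. It was -0.40 under normexp and -0.75 as the mean over probes, and the 10 include SOX6, SOX7 and SALL1, near background. With no filter, 4 had signals at least 2-fold lower (SOX6 and SALL1 among them, not well above background with embelin), 2 under normexp, and 3 to 4 with single arrays left out. The 319 genes called became 700 under normexp, 182 in the deposited table, 764 with a filter on all 4 arrays, 1061 with trend and robust, and 0 with no filter on dim probes, by the methods' t-test after adjustment, with slide position as a covariate and without any 1 array. At an unadjusted p under 0.05 limma gave 3436 genes, and 2128 to 3047 without 1 array. The methods' t-test gave 527 genes at least 2-fold higher and 472 lower before adjustment. The 3 pathway genes called became 6 under normexp, with the filter on all 4 arrays and with trend and robust, 1 under quantile normalization and in the deposited table, and 0 with no filter, as means over probes, by the t-test, with slide position and without any 1 array. Of the other SOX and SALL genes 1 (SOX8) was called under normexp, the filter on all 4 arrays and trend and robust. POU5F1 was called in 6 of 15 settings including the main one, and PMAIP1 in 4. Replicate numbers share nothing but the number in the labels, and deviations of same-numbered arrays correlated at 0.17. With the replicate number as a block 0 genes were called over the array and 0 of the pathway genes, with 3735 at an unadjusted p under 0.05. With 2 arrays in a group the smallest p of an exact permutation test is 0.333. Where 1 array was left alone in its group, its spread was assumed to be that of the other group.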
